A study of Homo sapiens with 24 samples.

Results

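The comparison described here is between H929 cells kept for 24 h with YKL-5-124 and H929 cells kept for 24 h with the vehicle DMSO, with 3 libraries on each side, 6 of the 24 libraries of the series. H929 is an established human multiple myeloma line, grown from a cancer of plasma cells, and is known for the translocation t(4;14), which brings FGFR3 and WHSC1 under control of the immunoglobulin heavy chain locus. The series title presents YKL-5-124, which has only a code name, as an inhibitor of CDK7. The labels give 83 nM for H929, on the treated and on the DMSO libraries alike. H929 at 6 h with the same agents, and MM1S, another established myeloma line labelled 98 nM, at 24 h, serve below only to show where the 24 h response of H929 differed, again with 3 libraries in each group. Line and dose cannot be told apart. The libraries read the 3′ ends of polyadenylated RNA and carry ERCC spike-in transcripts. Of the 26249 genes other than ERCC entries, 12418 reached 1 FPKM in at least 3 of the 24 libraries and were tested. FPKM, the deposited unit, stands for fragments per kilobase of transcript, scaled for each library. Because the labels do not say that replicates were separate cultures, the p-values rest on a spread between libraries that may be technical.

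CDK7, with cyclin H and MAT1, forms the CDK-activating kinase. As part of the general transcription factor TFIIH it phosphorylates the tail of RNA polymerase II at the start of transcription, and it also phosphorylates the activation loops of the cell cycle CDKs. Active G1 CDKs phosphorylate the RB family proteins, which frees E2F factors to switch on the genes of DNA replication. The genes of mitosis are switched on later by MYBL2 and FOXM1 through a promoter element called CHR. Plasma cells are specialised for secreting antibody and depend on a set of transcription factors that includes IRF4, PRDM1 and XBP1.

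The whole library stood lower with YKL-5-124. The size factor, the median over 6014 reference genes of a library's FPKM relative to the gene's geometric mean over the 24 libraries, was 1.72, 1.94 and 1.63 in the 3 DMSO libraries and 1.09, 0.671 and 1.30 in the 3 YKL-5-124 libraries. The treated libraries all lay below the controls, and YKL-5-124 replicate 2 was the lowest. The ratio of the groups was 0.558-fold (p = 0.1 in a two-sided exact permutation test, which cannot go lower with 3 libraries a side), and leaving out 1 library in turn moved it between 0.485 and 0.675. Summed gene FPKM divided by summed ERCC FPKM was 13.5 ± 0.900 with DMSO and 7.01 ± 2.27 with YKL-5-124 (SD, n = 3), while the ERCC sums of the 6 libraries stayed within 142095 to 144997 FPKM. With ERCC sums so level, this ratio follows the summed gene FPKM and is no separate check on the size factor. No read counts were used here and the depth is unknown. In bulk samples, fewer cells and less RNA per cell cannot be told apart, and an unequal amount of spike-in was not tested. At 6 h the ratio of size factors in H929 was 0.873-fold (exact p = 0.5), and in MM1S at 24 h it was 0.826-fold (exact p = 0.8).

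Every gene was therefore tested on 2 scales. The deposited scale keeps the level of the whole library, and the rescaled values, FPKM divided by the size factor, show each gene against the median of the reference genes. Changes are differences of log2(FPKM + 1), YKL-5-124 minus DMSO, with standard errors, and p-values are limma's, adjusted by Benjamini-Hochberg with a threshold of 0.05. The shift of the size factor moved the median of all tested genes from -0.46 as deposited to 0.13 rescaled. On the deposited scale 332 genes (2.67%) were higher and 4396 (35.4%) lower. On the rescaled scale 2585 (20.8%) were higher and 1550 (12.5%) lower, and with quantile normalization this split was 1905 and 1941, or 2179 and 1865 with reference genes from 1 FPKM. All 1550 genes lower after rescaling were also lower as deposited, and 329 genes (2.65%) were higher on both scales. Another 2846 genes were lower on the deposited scale only and 2256 higher on the rescaled scale only, and 0 changed in opposite directions. Without YKL-5-124 replicate 2 the total on the deposited scale was 2844 in place of 4728. Below, a gene "fell" or "rose" where it passed on both scales in that direction, and counts of list members are on both scales unless a scale is named.

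**Figure D1:**
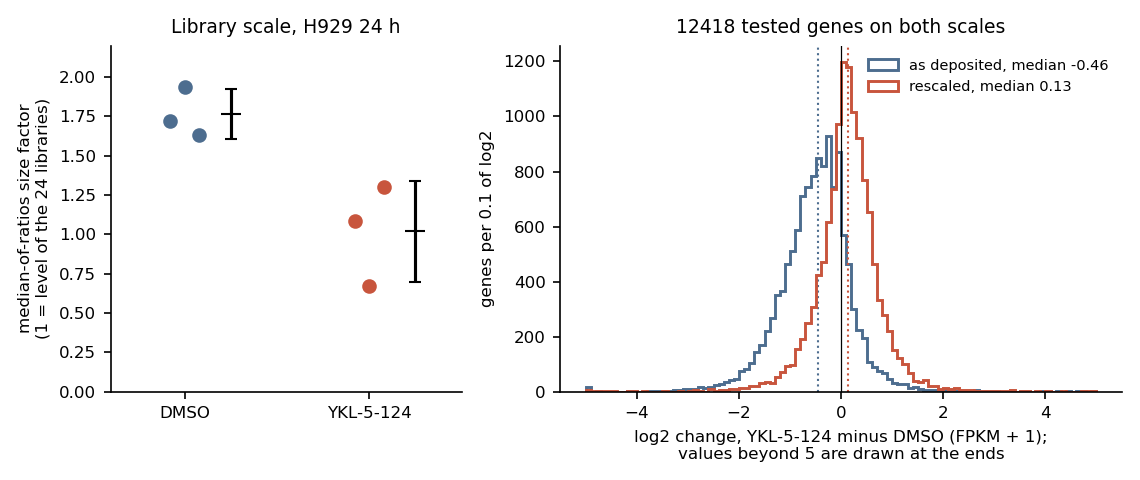
Left, the size factor of each H929 24 h library (points) with the group mean and SD (bars, n = 3): DMSO libraries lie between 1.63 and 1.94, YKL-5-124 libraries between 0.671 and 1.30. Right, the number of the 12418 tested genes per 0.1 of log2 change on the 2 scales, with medians of -0.46 as deposited and 0.13 rescaled (dotted lines).

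The label was checked against cell type markers. The plasma cell markers SDC1, TNFRSF17, CD38, XBP1, IRF4, PRDM1, MZB1 and SLAMF7 and the H929 markers FGFR3 and WHSC1 were present in all 6 libraries. Lists of 10 markers stood for each of 3 other sources: 3 T cell markers, 3 monocyte markers and 2 markers of epithelium and fibroblasts reached the test, and the defining CD3D, CD14 and EPCAM averaged 0.215 FPKM or less in both groups. Summed over all 10 markers, T cell genes came to 2.60 to 4.99 FPKM with DMSO and 3.21 to 3.83 FPKM with YKL-5-124. The monocyte sum was 16.3 to 48.0 FPKM with DMSO and 17.9 to 32.8 FPKM with YKL-5-124, and the epithelial and fibroblast sum was 27.5 to 30.5 FPKM with DMSO and 9.55 to 25.02 FPKM with YKL-5-124. S100A8, a calcium-binding protein of monocytes, was the 1 tested marker of other cells that rose, at 1.03, 0.109 and 0.108 FPKM with DMSO and 2.17, 3.09 and 1.89 FPKM with YKL-5-124. Its DMSO replicates 2 and 3 were near the floor, and in these 6 libraries it passed 1 FPKM mainly through the treated ones. Among markers that missed the test, CDH1 averaged 0.159 FPKM with DMSO and 0.844 FPKM with YKL-5-124, and VCAN 0.913 and 0.412 FPKM. CD68 was higher on the rescaled scale only (adjusted p = 0.0279) and KRT18 lower on the deposited scale only (adjusted p = 0.026). The part of other cells in the results was not tested.

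Genes were read in lists of a common role, of which only the tested members enter. The list counts below stand against 12.5% of all tested genes that fell, 2.65% that rose and 20.8% that were higher after rescaling. Groups without overlap were common: after rescaling, 3975 of the 12418 tested genes had all treated values above all controls and 2310 had them below. Members were named in part by small p-values, so a lack of overlap in them is no separate evidence. The helicase, origin and polymerase lists of DNA replication had the lowest rescaled medians. The small RNAs, the quiescence genes, the plasma cell transcription factors and the lysosome had the highest.

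**Figure D2:**
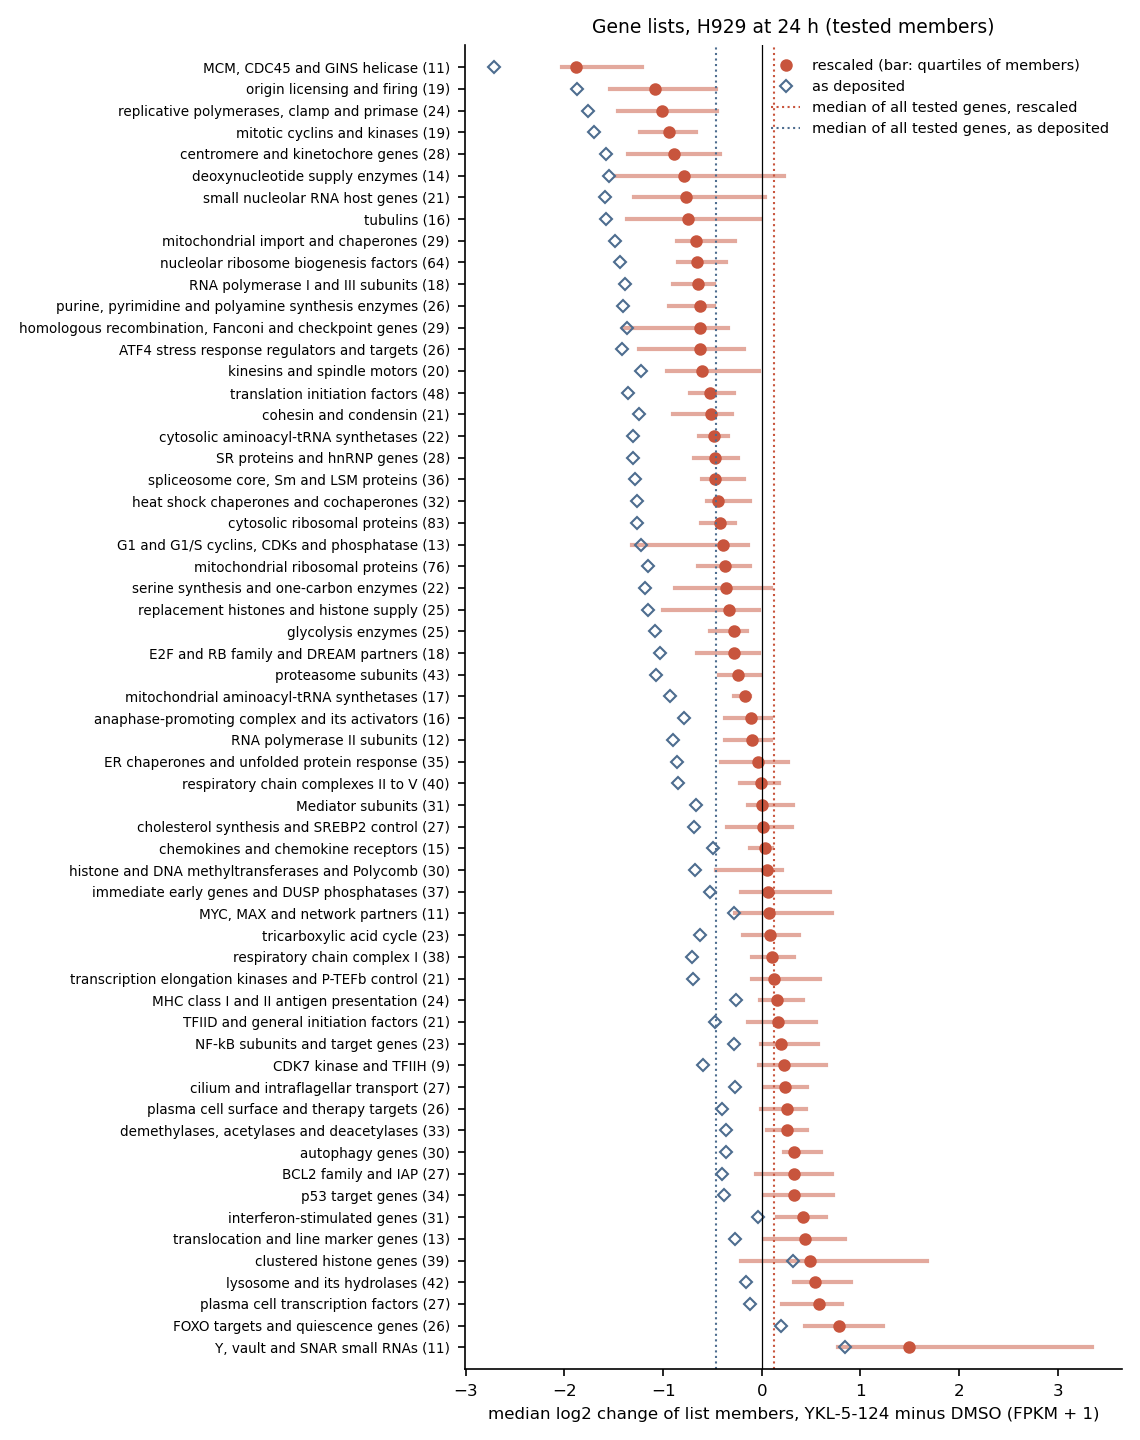
Median log2 change (YKL-5-124 minus DMSO, FPKM + 1) of the tested members of each gene list with at least 9 of them, rescaled (filled points, bars from the lower to the upper quartile of members) and as deposited (open diamonds). The MCM, CDC45 and GINS helicase is lowest at -1.89 rescaled, and the FOXO and quiescence genes stand at 0.78. Dotted lines mark the medians of all tested genes.

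The mRNA of CDK7 itself stood at 5.83, 9.97 and 6.2 FPKM with DMSO and 4.84, 2.47 and 4.85 FPKM with YKL-5-124. The treated values were below every control as deposited, but the gene passed on neither scale, with a log2 change of -0.73 ± 0.33 as deposited and -0.03 ± 0.29 rescaled (adjusted p = 0.0838 and 0.956). Its partners cyclin H (CCNH) and MAT1 (MNAT1) did not pass on either scale. Of the 9 tested CDK7 and TFIIH genes, 0 fell or rose on both scales. ERCC2, the helicase XPD that anchors the kinase to TFIIH, stood at 3.11, 4.84 and 4.2 FPKM with DMSO and 6.99, 3.15 and 8.18 FPKM with YKL-5-124, and GTF2H5, its smallest subunit, at 8.61, 9.29 and 7.57 FPKM with DMSO and 10.2, 7.42 and 9.62 FPKM with YKL-5-124. Both were higher on the rescaled scale only, by 1.05 ± 0.19 and 0.81 ± 0.19 (adjusted p = 0.0003 and 0.0021). GTF2H4, the p52 subunit, had 21.1, 41.3 and 29.9 FPKM with DMSO and 9.83, 9.14 and 16.2 FPKM with YKL-5-124 and was lower on the deposited scale only (-1.31 ± 0.30, adjusted p = 0.00164).

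The genes around RNA polymerase II divided by subunit. POLR2A, the largest subunit, whose tail CDK7 phosphorylates, stood at 89.3, 84.2 and 75.8 FPKM with DMSO and 128, 61.5 and 140.4 FPKM with YKL-5-124. YKL-5-124 replicate 2 was below every control and the other treated values above them, and it was higher after rescaling (1.14 ± 0.10, adjusted p = 6.84e-08) but not as deposited (0.32 ± 0.29, adjusted p = 0.414). Of the 12 subunits, 4 fell, led by POLR2H, a subunit shared by all 3 nuclear polymerases, at 163, 232 and 186 FPKM with DMSO and 39.4, 29.8 and 50.8 FPKM with YKL-5-124. Its groups were far apart, with a log2 change of -2.26 ± 0.27 as deposited and -1.43 ± 0.12 rescaled. POLR2G, of the Rpb4/7 stalk, also fell (-1.27 as deposited and -0.44 rescaled). The other falls, POLR2F and POLR2I, lost their rescaled call when single libraries were left out (adjusted p up to 0.102 and 0.0967).

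Factors that release the paused polymerase did not move together. Of 21 genes of the elongation kinases and P-TEFb control, 3 fell: NELFA, of the pausing complex NELF (53, 60.5 and 59.2 FPKM with DMSO and 20.6, 11.5 and 18 FPKM with YKL-5-124), and MEPCE and LARP7, which hold P-TEFb in its inactive 7SK particle (-1.53 as deposited and -0.70 rescaled for MEPCE, and -1.38 as deposited and -0.60 rescaled for LARP7). Each of these had treated values below all its controls. Another 7 were higher on the rescaled scale only, a count that was 3 without DMSO replicate 3 or YKL-5-124 replicate 1. They included HEXIM1, the P-TEFb inhibitor (0.93 rescaled, adjusted p = 0.000664) and cyclin T1 (CCNT1, 0.66 rescaled, adjusted p = 0.00201). CDK9, the kinase of P-TEFb, stood at 5.01, 4.47 and 4.08 FPKM with DMSO and 5.27, 6.9 and 6.03 FPKM with YKL-5-124 (1.01 rescaled, adjusted p = 0.00221; 0.35 as deposited, adjusted p = 0.295). CDK12, with its cyclin CCNK a kinase of later elongation, had rescaled log2 changes of -0.06 and -0.27 for the pair (adjusted p = 0.7 and 0.299). Both were lower on the deposited scale only, and CDK12 lost that call without YKL-5-124 replicate 2 (adjusted p = 0.057). CDK9, CDK12 and CCNK were chosen after their values were seen.

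Of 31 Mediator subunits 3 fell (9.68%) and 5 were higher on the rescaled scale only (16.1%), both below the shares of all genes lower (12.5%) and higher (20.8%) after rescaling. Of 21 TFIID and general initiation factors 0 fell, TAF13 rose and 8, itself included, were higher on the rescaled scale (5 without YKL-5-124 replicate 2). The deposited call of TAF13 was lost when single libraries were left out. MED22, of the Mediator head, stood at 43.8, 50.6 and 44.9 FPKM with DMSO and 11.5, 8.65 and 14.9 FPKM with YKL-5-124, below every control. RNA polymerases I and III, which make ribosomal RNA, tRNA and 5S RNA, were lower in most parts: 14 of their 18 own subunits fell, with a median rescaled change of -0.64. POLR1E, a subunit of polymerase I, stood at 23.7, 17.4 and 16 FPKM with DMSO and 4.2, 1.31 and 5.51 FPKM with YKL-5-124. POLR3G, a polymerase III subunit found in dividing cells, fell from 15.4 ± 2.15 to 2.75 ± 1.07 FPKM (-2.17 ± 0.25 as deposited and -1.42 ± 0.23 rescaled). Its paralogue POLR3GL stood at 93.9, 116 and 81.2 FPKM with DMSO and 106, 67.2 and 138 FPKM with YKL-5-124 and was higher after rescaling (0.88, adjusted p = 0.000204).

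The replicative helicase fell as a whole. All 11 tested genes of the MCM ring, CDC45 and the GINS complex, which together unwind DNA at the fork, fell on both scales, with rescaled changes between -2.15 and -0.57. MCM4 stood at 91.7, 125 and 111 FPKM with DMSO and 13.7, 8.77 and 17.7 FPKM with YKL-5-124. MCM3 stood at 147, 136 and 122 FPKM with DMSO and 21.4, 9.29 and 23.1 FPKM with YKL-5-124. MCM6 stood at 23.3, 28 and 24 FPKM with DMSO and 3.84, 2.13 and 3.79 FPKM with YKL-5-124. In each of these every treated value was far below the lowest DMSO value. CDC45 was at 14.7, 18.8 and 15 FPKM with DMSO and 1.24, 1.5 and 2.05 FPKM with YKL-5-124, and the change was -2.73 ± 0.24 as deposited and -1.96 ± 0.22 rescaled. The GINS subunits GINS1, GINS3 and GINS4 moved least, with rescaled changes of -0.85, -0.57 and -0.89.

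Loading of that helicase at origins was next. Of 19 genes of origin licensing and firing, 14 fell and 0 rose. CDT1 and CDC6, which load the MCM ring, stood at 146, 196 and 188 FPKM with DMSO and 21.6, 15.8 and 30.8 FPKM with YKL-5-124, and at 57.8, 74.8 and 57.3 FPKM with DMSO and 8.49, 5.01 and 10.3 FPKM with YKL-5-124, respectively. ORC1, of the origin recognition complex, fell from 5.77 ± 0.597 to 0.553 ± 0.285 FPKM. MCM10, needed to fire the loaded helicase, fell from 16.9 ± 0.76 to 2.21 ± 0.593 FPKM (SD, n = 3). Of 24 genes of the replicative polymerases, clamp and primase, 18 fell and POLD4, the small subunit of polymerase delta, was higher on the rescaled scale only (30.9, 32.3 and 21.2 FPKM with DMSO and 36.4, 24.3 and 45.8 FPKM with YKL-5-124; 1.1, adjusted p = 5.20e-06). RFC4, of the clamp loader, had 131, 176 and 127 FPKM with DMSO and 27, 14.1 and 36.4 FPKM with YKL-5-124. PCNA, the sliding clamp, was at 42, 66 and 51.7 FPKM with DMSO and 7.19, 8.87 and 12.7 FPKM with YKL-5-124. Outside this list, DSCC1, of the clamp loader that acts in sister chromatid cohesion, was among the largest falls, at 74.8, 80.0 and 67.9 FPKM with DMSO and 9.61, 4.19 and 8.9 FPKM with YKL-5-124.

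Of 14 enzymes that supply deoxynucleotides 8 fell and 1 rose. RRM2, the regulated subunit of ribonucleotide reductase, was at 192, 209.5 and 183 FPKM with DMSO and 19, 11.8 and 23.2 FPKM with YKL-5-124. TYMS, thymidylate synthase, was at 134, 107 and 117 FPKM with DMSO and 23.1, 14.9 and 30.7 FPKM with YKL-5-124. Both groups of values were well apart. TK2, the mitochondrial thymidine kinase, rose, at 3.12, 4.33 and 3.55 FPKM with DMSO and 8.21, 4.72 and 9.66 FPKM with YKL-5-124 (0.83 ± 0.26 as deposited and 1.44 ± 0.12 rescaled). The call on the deposited scale was lost without DMSO replicate 1 or YKL-5-124 replicate 3 (adjusted p = 0.0578 and 0.0668). PCNA and TYMS were chosen after their values were seen.

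Promoters of several of these genes hold the letters bound by E2F factors, and 5 are shown because their genes fell together. The stretches are from RefSeq (GRCh38.p14), 5′ to 3′ on the strand of the gene, with every match in the stretch, or its reverse complement, in capitals. The search took TTTGGCGC, TTTCCCGC, TTTGCCGC and TTTCGCGC on both strands of the 250 bases before the start site, and the number in brackets is the position of the first capital relative to that site. E2F1 shows 2 matches, and the capitals of MCM6 are 2 overlapping ones. Outside the stretches shown, MCM6 held the same 2 overlapping matches again from -90, and MCM7 another match at -9.
MCM3, chr6:52284884-52284941, minus strand (-174): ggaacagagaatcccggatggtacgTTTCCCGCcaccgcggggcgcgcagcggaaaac
MCM6, chr2:135876563-135876620, minus strand (-152): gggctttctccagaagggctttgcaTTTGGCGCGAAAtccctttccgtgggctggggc
MCM7, chr7:100101552-100101609, minus strand (-187): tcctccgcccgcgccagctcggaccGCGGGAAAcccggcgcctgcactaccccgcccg
PCNA, chr20:5126649-5126706, minus strand (-59): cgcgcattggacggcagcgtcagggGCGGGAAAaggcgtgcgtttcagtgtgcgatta
E2F1, chr20:33686386-33686443, minus strand (-33): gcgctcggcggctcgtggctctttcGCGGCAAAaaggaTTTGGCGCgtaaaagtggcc
Such letters stood in 2.79% of all 27305 promoters of the table and in 4.55% of the 9665 tested genes that had an entry. They stood in 7.97% of the 1254 genes with an entry among the 1550 that fell, in 4 of 8 helicase genes with an entry, and in 7 of 20 polymerase, clamp and primase genes (35.0%). Other replication lists held fewer, with 2 of 18 origin licensing genes (11.1%) and 1 of 12 deoxynucleotide enzymes (8.33%), although most of both lists fell. They also stood in 7 of 34 clustered histone genes (20.6%), a list in which more genes rose than fell. Among genes with an entry they stood in 3.18% of those that rose and 4.17% of those not called after rescaling. Entries were found for 77.8% of tested genes, 8 of the 11 helicase genes and 220 of the 329 genes that rose. The shares thus cover only part of each set and are no check over those sets. MCM2, CDC45 and RRM2, which fell as well, had an entry and no match in this window. A match is a description of the letters and not of a bound site.

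The E2F factors themselves fell in part. Of 18 genes of the E2F and RB families and the DREAM complex 6 fell. E2F1, the activator whose promoter is shown above, stood at 75.7, 67.2 and 72.3 FPKM with DMSO and 11, 6.42 and 11.6 FPKM with YKL-5-124, and E2F2 at 55.8, 63.9 and 54.5 FPKM with DMSO and 19.6, 10.2 and 22.7 FPKM with YKL-5-124. MYBL2 and FOXM1, which drive the later, mitotic genes, fell too, with log2 changes of -1.94 ± 0.32 as deposited and -1.1 ± 0.21 rescaled, and of -1.88 ± 0.33 as deposited and -1.11 ± 0.26 rescaled. Of 13 G1 and G1/S cyclins, CDKs and CDC25A, 5 fell. CDC25A, the phosphatase that activates CDK2, was at 60.4, 55 and 49.4 FPKM with DMSO and 6.59, 3.59 and 7.7 FPKM with YKL-5-124. CDK2 was at 86.1, 77 and 79.5 FPKM with DMSO and 18.1, 12.8 and 23.4 FPKM with YKL-5-124, and CKS1B, a CDK-binding subunit amplified in some myelomas, at 2269, 2692 and 2088 FPKM with DMSO and 349, 200.4 and 457 FPKM with YKL-5-124. All 3 had treated values below every control.

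The inhibitors of these kinases did not fall after rescaling. CDKN1B (p27) had 33.3, 37.4 and 29.2 FPKM with DMSO and 34.8, 23.8 and 44.1 FPKM with YKL-5-124, values that overlap, and was higher on the rescaled scale only (0.81, adjusted p = 3.65e-05). CDKN1A (p21) stood at 102, 87.2 and 70.9 FPKM with DMSO and 66, 35.8 and 69.1 FPKM with YKL-5-124 and CDKN2C (p18) at 139.9, 152 and 124 FPKM with DMSO and 154, 97.3 and 180.2 FPKM with YKL-5-124, and neither passed on any scale. CDKN2D (p19) passed on the rescaled scale (adjusted p = 0.0396), a call lost without any 1 of 5 of the 6 libraries, up to an adjusted p of 0.137.

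Mitotic genes followed. All 19 mitotic cyclins and kinases were lower as deposited, and 14 fell on both scales, with a median rescaled change of -0.94. AURKB, the kinase of the chromosomal passenger complex, was at 522, 617 and 533 FPKM with DMSO and 54.7, 33 and 71.6 FPKM with YKL-5-124. CDK1, the mitotic kinase, was at 86.5, 88.2 and 68.1 FPKM with DMSO and 14, 9.11 and 20.6 FPKM with YKL-5-124. AURKA and its activator TPX2 fell from 174 ± 16.9 to 38.2 ± 14.5 FPKM and from 104 ± 10.6 to 28 ± 10.0 FPKM. Of 20 kinesins and spindle motors 12 fell, among them KIF2C, which depolymerises microtubules at centromeres, and KIF20B (-2.41 as deposited and -1.61 rescaled for KIF2C, and -1.95 as deposited and -1.27 rescaled for KIF20B). Of 28 centromere and kinetochore genes 18 fell, and all 28 had a rescaled change below 0. CENPM was at 195, 235 and 175 FPKM with DMSO and 29.8, 23.9 and 45 FPKM with YKL-5-124 and ZWINT, of the outer kinetochore, at 60.4, 68.1 and 62.7 FPKM with DMSO and 10.1, 11.5 and 16.1 FPKM with YKL-5-124.

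The CHR element was sought in the same windows as TTTGAA and TTCGAA on both strands. It is shown for 5 mitotic genes that fell, of which PLK1, CCNB2 and KIF23 were chosen after their values were seen.
CDC20, chr1:43358891-43358946, plus strand (-65): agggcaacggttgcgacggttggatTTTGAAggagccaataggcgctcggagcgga
PLK1, chr16:23678835-23678888, plus strand (-29): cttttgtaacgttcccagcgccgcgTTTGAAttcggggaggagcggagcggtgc
CCNB2, chr15:59105092-59105145, plus strand (-29): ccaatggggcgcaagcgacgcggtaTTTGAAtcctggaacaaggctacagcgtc
KIF23, chr15:69414269-69414324, plus strand (-55): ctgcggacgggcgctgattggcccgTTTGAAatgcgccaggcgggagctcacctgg
CDK1, chr10:60778145-60778200, plus strand (-161): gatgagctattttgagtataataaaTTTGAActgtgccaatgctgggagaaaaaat
CDC20 held another match at -178. CHR letters stood in 14.6% of all promoters, in 9.77% of tested genes with an entry and in 13.6% of the genes with an entry that fell. By list they stood in 7 of 18 kinesins (38.9%), 5 of 13 mitotic cyclins and kinases (38.5%), 6 of 19 cohesin and condensin genes (31.6%) and 4 of 24 centromere and kinetochore genes (16.7%). They also stood in 13 of 34 clustered histone genes (38.2%), a list in which more genes rose than fell. AURKB and CCNB1, which also fell, had an entry and no match. Of the genes shown, PLK1, the Polo kinase, was at 152, 121 and 119.5 FPKM with DMSO and 35.9, 15 and 41.5 FPKM with YKL-5-124, CCNB2, cyclin B2, at 143, 128 and 116 FPKM with DMSO and 56.6, 27.8 and 54.9 FPKM with YKL-5-124, and KIF23, a kinesin of cytokinesis, at 7.83, 11 and 6.16 FPKM with DMSO and 2.38, 1.3 and 3.08 FPKM with YKL-5-124.

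The anaphase-promoting complex, the ubiquitin ligase that ends mitosis, did not fall as a unit: 4 of 16 tested genes fell. They were the core subunit CDC23, named after its value was seen, its activator CDC20 (235, 295 and 273 FPKM with DMSO and 42.5, 23.2 and 47.7 FPKM with YKL-5-124), its ubiquitin-loading enzyme UBE2C (-2.52 as deposited and -1.68 rescaled) and its inhibitor FBXO5 (-2.15 as deposited and -1.4 rescaled). The core subunit ANAPC16 was higher on the rescaled scale only (0.46, adjusted p = 0.00537). Of 21 cohesin and condensin genes 14 fell, among them sororin (CDCA5, from 23.4 ± 2.2 to 3.36 ± 0.699 FPKM) and the condensin ATPases SMC2 and SMC4 (-1.93 as deposited and -1.16 rescaled for SMC2, and -1.72 as deposited and -0.90 rescaled for SMC4). Of 29 genes of homologous recombination, the Fanconi pathway and the replication checkpoint, 16 fell and 0 rose. CHEK1, the checkpoint kinase, was at 37, 41 and 35.7 FPKM with DMSO and 5.29, 4.17 and 6.79 FPKM with YKL-5-124. FANCA and FANCG, of the Fanconi core complex, fell from 22.4 ± 1.85 to 3.35 ± 1.53 FPKM and from 42.4 ± 5.38 to 6.46 ± 1.26 FPKM. DMC1, a recombinase known from meiosis, was at 592, 629 and 429 FPKM with DMSO and 80.8, 14.7 and 176 FPKM with YKL-5-124, with a wide treated range, and its rescaled call was lost without YKL-5-124 replicate 2 (adjusted p = 0.0542).

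Tubulins, the units of the spindle, fell in 9 of 16, led by TUBB2B at 154, 171 and 158 FPKM with DMSO and 23.9, 8.22 and 18.9 FPKM with YKL-5-124 and TUBB at 1555, 1912 and 1578 FPKM with DMSO and 251, 154 and 363 FPKM with YKL-5-124. Tubulins resemble each other closely, and the share of reads given to each copy is uncertain.

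**Figure D3:**
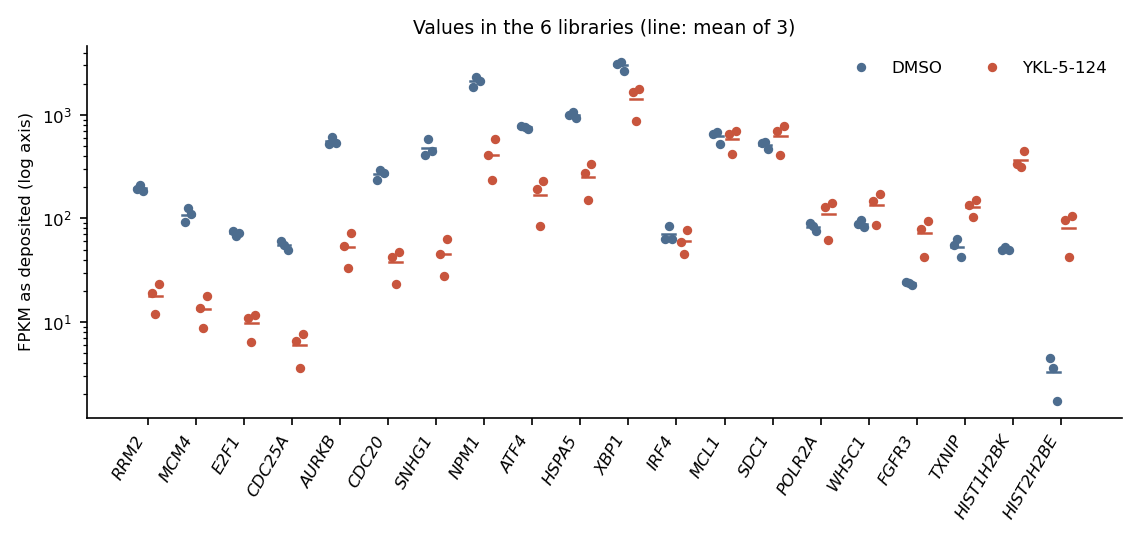
Deposited FPKM (log axis) of 20 genes named in the text in each of the 6 libraries, DMSO blue and YKL-5-124 red, with the mean of 3 as a line. From RRM2 to XBP1 the 2 groups do not overlap and the treated values are lower, for IRF4, MCL1, SDC1, POLR2A and WHSC1 they overlap, and for FGFR3, TXNIP, HIST1H2BK and HIST2H2BE the treated values are all higher.

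Histone genes went both ways. Of 39 tested genes of the histone clusters 11 rose and 5 fell, and the count that fell was 3 without DMSO replicate 2 or 3, or YKL-5-124 replicate 1 or 3. By class, 5 of 10 H2B genes rose and 0 fell, 3 of 12 H2A genes rose and 2 fell, 2 of 6 H3 genes rose and 0 fell, 1 of 4 H1 genes rose and 2 fell, and 0 of 7 H4 genes rose and 1 fell. Of all genes 2.65% rose and 12.5% fell. The mean with DMSO was under 1 FPKM in 5 of the H2B, 6 of the H2A, 3 of the H3, 0 of the H1 and 2 of the H4 genes. Genes so low had little room to fall, so the classes are not compared further. HIST2H2BE was at 4.53, 3.61 and 1.71 FPKM with DMSO and 96.2, 42.6 and 104 FPKM with YKL-5-124. HIST1H2BK was at 49.5, 53.3 and 49.9 FPKM with DMSO and 334, 311 and 444 FPKM with YKL-5-124. HIST1H2BD was at 13, 13.1 and 3.9 FPKM with DMSO and 80.2, 48.2 and 103 FPKM with YKL-5-124. No treated library overlapped a control in these 3 genes. HIST1H4C, in contrast, stood at 504, 856 and 781 FPKM with DMSO and 56.2, 57 and 55.5 FPKM with YKL-5-124. HIST1H1C, the linker histone H1.2, rose from 142 ± 5.37 to 272 ± 66.2 FPKM, and HIST1H3G and HIST1H3D went from 9.11 ± 2.81 to 58.5 ± 8.77 FPKM and from 2.45 ± 1.23 to 23.1 ± 7.39 FPKM, respectively. Histone genes are near-identical copies and most of their mRNA is known to end without a poly(A) tail, so these values cover the reads assigned to each copy in a poly(A) library. SLBP, the protein that binds the stem-loop end of histone mRNA, fell, at 68.5, 54.3 and 47.1 FPKM with DMSO and 19.6, 9.6 and 18.4 FPKM with YKL-5-124. Of 25 replacement histones and histone supply genes 12 fell and 0 rose. H2AFZ, the variant H2A.Z, was at 4700.0, 4239 and 3819 FPKM with DMSO and 1047, 495 and 1090.0 FPKM with YKL-5-124, and NASP, a histone chaperone, at 248, 228 and 219 FPKM with DMSO and 51.8, 25 and 58.8 FPKM with YKL-5-124. CHAF1A, of the replication-coupled assembly factor CAF-1, and HJURP, the chaperone of CENP-A, changed by -2.28 as deposited and -1.46 rescaled for CHAF1A, and -2.74 as deposited and -1.93 rescaled for HJURP.

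Chromatin enzymes divided as well. Of 30 methyltransferase and Polycomb genes 7 fell and 1 rose (2 without YKL-5-124 replicate 2). DNMT1, the maintenance DNA methyltransferase, fell from 73.3 ± 6.0 to 20.6 ± 6.64 FPKM. Among Polycomb chromobox genes CBX2 was at 6.49, 8.48 and 7.9 FPKM with DMSO and 1.69, 1.14 and 1.91 FPKM with YKL-5-124, and CBX7 rose, with 4.18, 3.57 and 2.78 FPKM with DMSO and 10.1, 4.89 and 10.9 FPKM with YKL-5-124. Of 33 demethylases, acetylases and deacetylases, only the histone demethylase KDM1A fell (3.03%, against 12.5% of all genes). Another 9 (27.3%) were higher on the rescaled scale only, near the 20.8% of all genes higher after rescaling. The rescaled call of KDM1A was lost without YKL-5-124 replicate 1 or 3 (adjusted p = 0.0827 and 0.0771).

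Most genes that build ribosomes fell. Of 64 nucleolar ribosome biogenesis factors 45 fell and 0 rose, with a median rescaled change of -0.66. NPM1, nucleophosmin, was at 1860.0, 2325 and 2133 FPKM with DMSO and 411, 237 and 585 FPKM with YKL-5-124. NCL, nucleolin, was at 839, 981 and 883 FPKM with DMSO and 238, 156 and 299.9 FPKM with YKL-5-124. FBL and NOP56, of the box C/D particle that methylates ribosomal RNA, fell from 1880.0 ± 286 to 471 ± 163 FPKM and from 304 ± 11.2 to 73.5 ± 27.6 FPKM. Of 83 cytosolic ribosomal protein genes 80 were lower as deposited and 44 fell on both scales, with a median rescaled change of -0.43. RPL22L1, a paralogue of RPL22, was at 138, 145 and 115 FPKM with DMSO and 16.9, 8.57 and 16.3 FPKM with YKL-5-124, with a rescaled change of -2.38, against -1.0 for RPL5 and -0.78 for RPL23.

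Small nucleolar RNA host genes, which carry the guide RNAs of rRNA modification in their introns, fell in 13 of 21. SNHG1 was at 410.0, 585 and 443 FPKM with DMSO and 45.6, 28 and 62.6 FPKM with YKL-5-124. SNHG16 was at 59.9, 65.3 and 58.4 FPKM with DMSO and 6.69, 5.22 and 6.73 FPKM with YKL-5-124. SNHG7 had 244, 288 and 231 FPKM with DMSO and 24.5, 22.3 and 43.5 FPKM with YKL-5-124. The groups were far apart in all 3. Of 76 mitochondrial ribosomal proteins 34 fell, led by MRPL11 (-2.03 as deposited and -1.2 rescaled). Translation factors fell widely, in 27 of 48 initiation factors and 13 of 22 cytosolic aminoacyl-tRNA synthetases, but in 2 of 17 mitochondrial synthetases. EIF4A2, a cap-complex helicase, was at 145, 174 and 139 FPKM with DMSO and 41.2, 28.9 and 45.1 FPKM with YKL-5-124. EIF1, which sets start codon choice, fell from 955 ± 72.9 to 289 ± 96 FPKM, and AARS, alanyl-tRNA synthetase, from 39 ± 2.27 to 9.45 ± 3.49 FPKM.

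RNA processing genes fell in part. Of 28 SR protein and hnRNP genes 14 fell and 0 rose, and of 36 core spliceosome, Sm and LSM genes 21 fell. HNRNPA1, an exon-silencing protein, was at 266, 395 and 322 FPKM with DMSO and 43.3, 38.8 and 61 FPKM with YKL-5-124. HNRNPH1 and HNRNPD fell from 659 ± 70.8 to 160.5 ± 58.9 FPKM and from 254 ± 24.5 to 61.8 ± 16.3 FPKM. SNRPD1 and SNRPF, of the Sm ring, had rescaled changes of -1.28 and -1.14.

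Many biosynthetic enzymes of nucleotides and amino acids fell. Of 26 purine, pyrimidine and polyamine enzymes 17 fell and 0 rose. IMPDH2, the committed step of guanine nucleotides, was at 399, 496 and 413 FPKM with DMSO and 90.5, 54.9 and 99.3 FPKM with YKL-5-124. CTPS1, CTP synthase, and CAD, which starts pyrimidine synthesis, fell from 73.2 ± 9.61 to 13.4 ± 6.12 FPKM and from 22.6 ± 3.62 to 5.36 ± 1.89 FPKM. Of 22 serine and one-carbon enzymes 9 fell and 1 rose, a count that was 0 without DMSO replicate 2 or 3 or YKL-5-124 replicate 1 or 3. PSAT1, of serine synthesis, was at 85.7, 98.5 and 85.7 FPKM with DMSO and 14, 6.4 and 14.2 FPKM with YKL-5-124. Of 26 ATF4 regulators and targets, the amino acid stress response, 16 fell and 0 rose. ATF4 was at 788, 769 and 725 FPKM with DMSO and 191, 85.1 and 231 FPKM with YKL-5-124, ATF5 at 261, 408 and 342 FPKM with DMSO and 49.4, 28.4 and 66.5 FPKM with YKL-5-124 and STC2, a secreted target, at 98.1, 106 and 88.1 FPKM with DMSO and 16.1, 6.28 and 13.8 FPKM with YKL-5-124.

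Energy metabolism was mixed. Of 25 glycolysis genes 8 fell (5 without DMSO replicate 2 or YKL-5-124 replicate 2), led by LDHA, lactate dehydrogenase, at 285, 318 and 262 FPKM with DMSO and 86.7, 44.2 and 112 FPKM with YKL-5-124. PDK1, a kinase that inhibits pyruvate dehydrogenase, was higher on the rescaled scale only (0.64, adjusted p = 6.97e-05). Of 38 complex I genes 3 fell (1 without YKL-5-124 replicate 2) and 7 (18.4%) were higher on the rescaled scale (4 without DMSO replicate 3 or YKL-5-124 replicate 2), against 20.8% of all genes, with a median of 0.10, near the 0.13 of all genes. Of 40 genes of complexes II to V 3 fell (7.5%, against 12.5% of all genes). Among them were cytochrome c (CYCS) and cytochrome c1 (CYC1), with rescaled changes of -0.80 and -0.74. SDHC, a subunit of complex II, was at 82.6, 83.8 and 65.9 FPKM with DMSO and 86.6, 54.8 and 93.3 FPKM with YKL-5-124 and higher on the rescaled scale only (0.81). Of 29 genes for importing and folding mitochondrial proteins 20 fell. HSPD1, the mitochondrial chaperonin, was at 463, 692 and 556 FPKM with DMSO and 117, 73.7 and 162 FPKM with YKL-5-124 and TIMM13, of the intermembrane space, at 794, 792 and 759.6 FPKM with DMSO and 252, 136 and 318 FPKM with YKL-5-124.

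Of 27 cholesterol synthesis genes 4 fell (14.8%, near the 12.5% of all genes). Another 1 rose, a count that was 0 without DMSO replicate 1 or 3 or YKL-5-124 replicate 1 or 3. INSIG1, which retains SREBP in the ER, fell from 45.8 ± 4.9 to 13 ± 1.55 FPKM.

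Protein folding genes fell in the cytosol and, in part, in the ER. Of 32 heat shock chaperones and cochaperones 21 fell and 0 rose (13 fell without DMSO replicate 2 or YKL-5-124 replicate 2). HSP90AA1 was at 1265, 1250.0 and 1171 FPKM with DMSO and 325, 173 and 438 FPKM with YKL-5-124, and its paralogue HSP90AB1 fell from 2519 ± 273 to 771 ± 275 FPKM. Of 35 ER chaperones and unfolded protein response genes 11 fell and 1 rose. HSPA5 (BiP), the main ER chaperone, was at 996, 1063 and 938 FPKM with DMSO and 274, 151 and 332 FPKM with YKL-5-124. EIF2AK3 (PERK), a sensor of unfolded proteins, was the 1 that rose, at 63.4, 96.8 and 59.8 FPKM with DMSO and 109, 96.5 and 153 FPKM with YKL-5-124, and the deposited call was lost without any 1 of 4 libraries (adjusted p up to 0.178). SYVN1, the ER ubiquitin ligase, was higher on the rescaled scale only (0.65). Of 43 proteasome subunits 12 fell and 0 rose, with a median rescaled change of -0.24. PSMB5, the subunit that bortezomib binds, was at 723, 692 and 654 FPKM with DMSO and 291, 164 and 323 FPKM with YKL-5-124. Of 6 tested metallothioneins and MTF1-linked genes 2 fell, MT2A and MT1E, and MT1E lost its rescaled call without DMSO replicate 3 or YKL-5-124 replicate 1 or 3 (adjusted p up to 0.113). MT2A stood at 138, 135 and 118 FPKM with DMSO and 10.3, 8.49 and 10.4 FPKM with YKL-5-124. Metallothioneins are near-identical copies.

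Lysosome genes stood high against the rest of the library. Of 42 tested genes of the lysosome and its hydrolases 26 (61.9%) were higher after rescaling, against 20.8% of all genes, and 0 were lower, with a median of 0.54. Only 3 of them also passed upward as deposited. SGSH, the heparan sulfamidase, was 1 of these, at 14.5, 15.8 and 15.3 FPKM with DMSO and 38.8, 21.8 and 43.3 FPKM with YKL-5-124 (1.08 ± 0.27 as deposited and 1.85 ± 0.13 rescaled). LAMP1, the main membrane protein, was at 59.3, 62.6 and 51.8 FPKM with DMSO and 66.7, 47 and 84.8 FPKM with YKL-5-124 and the protease CTSB at 140.5, 114 and 97.6 FPKM with DMSO and 152, 85.1 and 166 FPKM with YKL-5-124. The groups of both overlapped as deposited, and the rescaled changes were 0.98 ± 0.12 and 0.98 ± 0.12. Of 30 autophagy genes 13 (43.3%) were higher on the rescaled scale, against 20.8% of all genes. The count that was lower was 1 (0 without DMSO replicate 1 or 3 or YKL-5-124 replicate 2 or 3). MAP1LC3B and the cargo receptor NBR1 had rescaled changes of 1.13 and 1.06 (adjusted p = 1.72e-06 and 2.16e-07), and TP53INP1 rose on both scales, at 3.99, 4.0 and 3.93 FPKM with DMSO and 10.3, 7.43 and 12.5 FPKM with YKL-5-124.

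Genes linked with FOXO factors and quiescence stood high as well. Of 26 tested genes 7 rose on both scales, against 2.65% of all, 18 were higher after rescaling and 1, KLF2, fell. TXNIP, which restrains glucose uptake, was at 54.8, 63.1 and 42.5 FPKM with DMSO and 135, 103 and 152 FPKM with YKL-5-124. PINK1, a kinase of mitochondrial quality control, was at 4.75, 4.45 and 2.34 FPKM with DMSO and 15.8, 8.87 and 21 FPKM with YKL-5-124. YPEL5 was at 9.54, 10.8 and 7.52 FPKM with DMSO and 26.2, 16.4 and 31.4 FPKM with YKL-5-124 and MXD4, a MAX partner that opposes MYC, at 9.67, 11.6 and 11.6 FPKM with DMSO and 25.1, 18 and 24.6 FPKM with YKL-5-124. In none of these 4 did the groups overlap, which naming by small p-values favours. MYC itself passed on neither scale (0.517 ± 0.197 FPKM with DMSO and 0.299 ± 0.281 FPKM with YKL-5-124, adjusted p = 0.612 and 0.911). It stood below 1 FPKM, near the floor, in both groups, so a fall could hardly be seen and MYC is not read as unchanged. MLX and MAX fell (-1.65 as deposited and -0.84 rescaled for MLX, and -1.16 as deposited and -0.33 rescaled for MAX), and the rescaled call of MAX was lost without any 1 of 5 libraries (adjusted p up to 0.154).

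The p53 targets went both ways. Of 34 tested, 4 rose (2 without DMSO replicate 3), against 2.65% of all genes, and 4 (11.8%) fell, against 12.5%. After rescaling 13 (38.2%) were higher, against 20.8% of all genes, with a median of 0.33 against 0.13. TP53INP1 and PLK2 were among those that rose (1.13 as deposited and 1.76 rescaled for TP53INP1, and 0.86 as deposited and 1.54 rescaled for PLK2), and PLK2 lost its deposited call without DMSO replicate 3 (adjusted p = 0.128). MDM2, the ubiquitin ligase of p53, fell, at 84.6, 88.8 and 77.2 FPKM with DMSO and 35.3, 19.3 and 43.6 FPKM with YKL-5-124, as did AEN and TRIAP1. BTG2, an antiproliferative gene, was at 82.3, 81.1 and 65.3 FPKM with DMSO and 104, 67.4 and 137 FPKM with YKL-5-124 and higher on the rescaled scale only (1.2).

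Most plasma cell regulators were higher against the rest of the library. Of 27 tested plasma cell transcription factors 18 (66.7%) were higher after rescaling, against 20.8% of all genes, with a median of 0.58, and 1 of them, RUNX1 (4.86, 4.44 and 3.29 FPKM with DMSO and 8.64, 5.56 and 9.58 FPKM with YKL-5-124), also passed as deposited. The deposited call of RUNX1 was lost with only the groups compared in the fit (0.76, limma adjusted p = 0.0792). IRF4 was at 63, 85.2 and 63.6 FPKM with DMSO and 58.6, 45.7 and 76.5 FPKM with YKL-5-124. PRDM1 was at 35.2, 42.2 and 32.1 FPKM with DMSO and 40.9, 32 and 52.5 FPKM with YKL-5-124. MEF2C was at 62.1, 74.4 and 64.3 FPKM with DMSO and 77.3, 55 and 97 FPKM with YKL-5-124. The groups of all 3 overlapped as deposited, and the rescaled changes were 0.58 ± 0.13, 0.98 ± 0.13 and 0.98 ± 0.09. XBP1, which drives the secretory programme, was at 3132, 3209 and 2666 FPKM with DMSO and 1666, 868 and 1764 FPKM with YKL-5-124, lower on the deposited scale only (-1.13 ± 0.31, adjusted p = 0.00627, and 0.0594 without YKL-5-124 replicate 2). ID3 and KLF2 fell (-1.87 as deposited and -1.04 rescaled for ID3, and -1.77 as deposited and -1.04 rescaled for KLF2).

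Among 26 plasma cell surface and therapy genes 7 (26.9%) were higher after rescaling, a share near the 20.8% of all genes, 0 rose on both scales and ICAM2 fell, a call that was lost when single libraries were left out. SDC1 (CD138), the marker by which plasma cells are sorted, was at 535, 542 and 471 FPKM with DMSO and 692, 408 and 777 FPKM with YKL-5-124 (1.07 rescaled, adjusted p = 8.60e-10). TNFRSF17 (BCMA), a target of myeloma therapies, was at 1049, 1191 and 1044 FPKM with DMSO and 798, 549.9 and 909.6 FPKM with YKL-5-124 and did not pass on either scale (-0.57 as deposited and 0.27 rescaled, adjusted p = 0.133 and 0.181). MZB1, an ER protein of antibody-secreting cells, fell (-1.22 as deposited and -0.38 rescaled), though its rescaled call was lost without DMSO replicate 3 or YKL-5-124 replicate 3 (adjusted p = 0.0797 and 0.0534). With quantile normalization its change was -0.12 (limma adjusted p = 0.429). JCHAIN, the joining chain of polymeric antibody, was at 3743, 3688 and 3256 FPKM with DMSO and 1927, 1277 and 2326 FPKM with YKL-5-124 and did not pass after rescaling (-0.15). VPREB3, linked to immunoglobulin assembly, rose, at 0.139, 1.23 and 3.36 FPKM with DMSO and 15.2, 4.89 and 9.76 FPKM with YKL-5-124.

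Both genes that mark the t(4;14) line were higher against the rest of the library. FGFR3, a receptor tyrosine kinase, stood at 24.5, 23.9 and 23 FPKM with DMSO and 78.8, 42.7 and 93.6 FPKM with YKL-5-124. Every treated value was above every control, and the change was 1.48 ± 0.24 as deposited and 2.27 ± 0.17 rescaled (adjusted p = 7.82e-05 and 7.26e-09). WHSC1 (NSD2), the histone H3 lysine methyltransferase of the same translocation, stood at 89.2, 96.2 and 82.5 FPKM with DMSO and 147, 86.5 and 171 FPKM with YKL-5-124. Its groups overlapped as deposited (0.53 ± 0.26, adjusted p = 0.115), and it was higher after rescaling (1.36 ± 0.09, adjusted p = 1.17e-09). Genes near them on chromosome 4, chosen after values were seen, were mixed. SLBP, TACC3 and NELFA fell, with rescaled changes of -1.0 ± 0.17, -1.02 ± 0.18 and -0.94 ± 0.16. TACC3, a spindle protein and the nearest gene before FGFR3, was at 102, 111 and 96.7 FPKM with DMSO and 27, 20.4 and 39.8 FPKM with YKL-5-124. LETM1, which lies between FGFR3 and WHSC1, was lower on the deposited scale only and had a rescaled change of -0.22 ± 0.11 (adjusted p = 0.131). Its deposited call was lost without YKL-5-124 replicate 2 (-0.68, adjusted p = 0.0746). MAEA and HAUS3 were also lower on the deposited scale only. TMEM129, C4orf48 and ZFYVE28 were higher on the rescaled scale only (0.81 ± 0.12, 0.60 ± 0.22 and 0.70 ± 0.17, adjusted p = 4.47e-05, 0.0383 and 0.00382). MXD4, given above, rose. In MM1S at 24 h WHSC1 had a rescaled change of -0.87 (adjusted p = 4.65e-07).

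**Figure D4:**
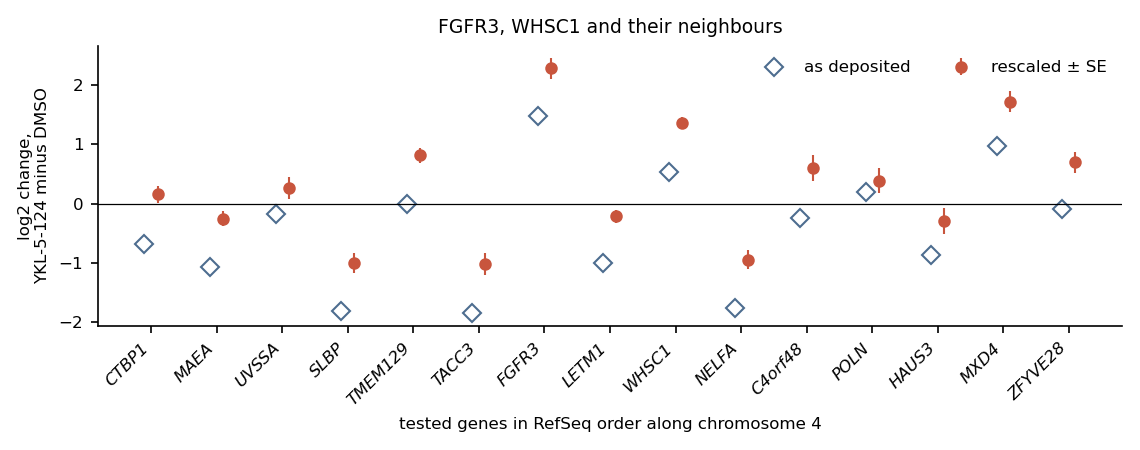
Log2 change (YKL-5-124 minus DMSO) of FGFR3, WHSC1 and 13 tested neighbours in their RefSeq order on chromosome 4, rescaled (filled points ± SE) and as deposited (open diamonds). FGFR3 is highest at 2.27 rescaled, while TACC3 beside it stands at -1.02.

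The survival and stress lists were mixed. Of 27 BCL2 family and IAP genes 1 fell (2 without YKL-5-124 replicate 1) and 1 rose, and 9 (33.3%) were higher after rescaling, against 20.8% of all genes. BIRC5 (survivin), also a mitotic gene, was at 97.3, 120.5 and 103 FPKM with DMSO and 30.5, 22.3 and 39.3 FPKM with YKL-5-124. MCL1, on which myeloma cells depend, was at 658, 678 and 528 FPKM with DMSO and 659, 418 and 694 FPKM with YKL-5-124, overlapping as deposited, with 0.74 ± 0.08 rescaled (adjusted p = 9.57e-07). BCL2L1 (BCL-XL) rose, at 7.71, 9.26 and 8.93 FPKM with DMSO and 15.2, 10.5 and 24.9 FPKM with YKL-5-124, and its deposited call was lost without DMSO replicate 1 or YKL-5-124 replicate 3 (adjusted p = 0.0701 and 0.129). Of 31 interferon-stimulated genes 11 (35.5%) were higher after rescaling, against 20.8% of all genes, and 0 lower. Of 37 immediate early genes 3 fell, KLF2, JUN and IER5, and 2 rose, IER3 and FOS, which was named after its value was seen. The rescaled call was lost without DMSO replicate 1 for JUN and IER5 (adjusted p = 0.14 and 0.0588), and also without YKL-5-124 replicate 3 for JUN and replicate 2 for IER5. IER3 lost its deposited call without any 1 of 5 of the 6 libraries, the exception being YKL-5-124 replicate 2 (adjusted p up to 0.202), and also with the replicate block (0.057), without a filter (0.087), with a pseudocount of 0.5 FPKM (0.0515) and with only the groups compared in the fit (0.097). JUNB and DUSP22 were among 10 higher after rescaling (1.31 and 1.36). Of 23 NF-kB subunits and targets 2 rose, IER3 and NFKBIZ, the latter named after its value was seen. This count was as low as 0, and it fell by more than 1.5 times without any 1 of DMSO replicates 1, 2 and 3 and YKL-5-124 replicates 1 and 3. TRAF2 and NFKBIB, which encodes the inhibitor IkB beta, fell (-1.63 as deposited and -0.86 rescaled for TRAF2, and -1.55 as deposited and -0.75 rescaled for NFKBIB). NFKBIA, its relative, was at 137, 132 and 124 FPKM with DMSO and 158, 81.8 and 184 FPKM with YKL-5-124 and higher on the rescaled scale only (0.86). MHC genes were higher after rescaling in 7 of 24 (29.2%, against 20.8% of all genes). B2M, the light chain of class I, was among them, at 3438, 4259 and 3187 FPKM with DMSO and 3815, 2548 and 5127 FPKM with YKL-5-124, as was the peptide transporter gene TAP1 (0.85, adjusted p = 4.71e-05). Its partner TAP2 fell (-1.3 as deposited and -0.50 rescaled), a rescaled call lost without DMSO replicate 2 (adjusted p = 0.0503).

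The genes with the largest rises on both scales came from several classes. Beside the histones stood MILR1, an inhibitory immunoreceptor of mast cells, at 1.98, 0.908 and 0.513 FPKM with DMSO and 31.5, 10.4 and 33.8 FPKM with YKL-5-124. CACNG6, a calcium channel gamma subunit, was at 4.62, 10.2 and 2.93 FPKM with DMSO and 48, 24 and 51.6 FPKM with YKL-5-124. P2RX1, an ATP-gated channel, was at 1.84, 1.85 and 0.906 FPKM with DMSO and 16.6, 8.49 and 22.6 FPKM with YKL-5-124 and UPK3A, an uroplakin of bladder epithelium, at 20.7, 7.72 and 5.66 FPKM with DMSO and 83.8, 41.4 and 85.1 FPKM with YKL-5-124. In each of these the groups did not overlap, and YKL-5-124 replicate 2 was the lowest treated library. ENO1-AS1 and ST3GAL4-AS1, annotated as antisense transcripts, were at 3.22, 1.93 and 7.99 FPKM with DMSO and 41.7, 19.5 and 38.4 FPKM with YKL-5-124, and at 1.28, 2.13 and 1.09 FPKM with DMSO and 16.7, 7.54 and 17.9 FPKM with YKL-5-124. Whether counting used the strand is not given in the sources used here, so reads of a gene and its antisense partner cannot be told apart. The largest falls not yet given were TEX19, a gene of germ cells and placenta, at 184, 233 and 182 FPKM with DMSO and 17.8, 11 and 18.9 FPKM with YKL-5-124, and the olfactory receptor pseudogene OR7E12P, at 69.1, 71.4 and 83.8 FPKM with DMSO and 7.13, 2.81 and 13.4 FPKM with YKL-5-124.

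Of 11 tested Y, vault and SNAR small RNAs 3 rose, against 2.65% of all genes. All 3 stood near the floor with DMSO, so the count is not read as a result about the list. RNY5, the Y5 RNA, was listed near the floor at 0.11 FPKM in all 3 DMSO libraries and at 1635, 834 and 2511 FPKM with YKL-5-124. VTRNA1-3, a vault RNA, and SNAR-A11 were also listed near the floor in all DMSO libraries, and stood at 89.8, 83.1 and 256 FPKM, and at 31.2, 27.8 and 25.7 FPKM, with YKL-5-124. No fold is given against such values. These RNAs are short, near-identical copies without a usual poly(A) tail, and their levels are not compared with those of other genes.

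The class and the length of a gene, which the comparison did not use, are given as descriptions. With a minimum mean of 5 FPKM in the DMSO libraries, which does not use the treated values, 17 of 163 RefSeq lncRNA genes (10.4%) rose on both scales and 25 (15.3%) fell, against 1.04% and 20.3% of 6838 protein-coding genes. With the minimum set over all 6 libraries, which low genes that rise can pass through the treated ones, the share of lncRNA genes that rose was 19.0%. The first of these minimums was chosen after seeing the data. With the minimum over all 6 libraries and genes split by length on the genome into 5 equal bins, the 1379 longest genes had a median rescaled change of 0.24 and 10.4% of them fell, and the 1379 shortest had -0.03 and 23.2%. With the minimum in DMSO these were 0.19 and 10.7%, and -0.05 and 23.5%. RefSeq placed 99.0% of the 6963 genes. These are descriptions across genes, which are not replicates.

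The response at 24 h differed from that at 6 h in many of these genes. The test is the difference of the 2 responses, YKL-5-124 minus DMSO at 24 h less the same at 6 h, on the rescaled scale: it was positive for 716 genes (5.77%) and negative for 579 (4.66%). As deposited it was positive for 36 (0.29%) and negative for 767 (6.18%). At 6 h itself 635 genes (5.11%) were higher and 520 (4.19%) lower after rescaling. Of the 11 helicase genes 9 had a negative difference, and 2 were lower at 6 h. CDC45 had a rescaled change of 0.17 ± 0.22 at 6 h and -1.96 ± 0.22 at 24 h, a difference of -2.12 ± 0.31 (limma adjusted p = 0.000173). RRM2 had -0.39 ± 0.10 and -2.58 ± 0.10, a difference of -2.19 ± 0.15. ORC1 had 0.49 ± 0.18 at 6 h and -1.49 ± 0.18 at 24 h, a difference of -1.98 ± 0.25. Polymerase and clamp genes differed in the same direction in 14 of 24, kinetochore genes in 12 of 28 and homologous recombination genes in 12 of 29.

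In other lists part of the members were already lower at 6 h. Of the 64 nucleolar factors 24 were lower then on the rescaled scale, of 21 small nucleolar RNA hosts 11, and of 26 ATF4 genes 7, against 4.19% of all genes. As deposited these counts were 5, 6 and 3, against 1.16% of all genes. Their differences between times were negative in 12, 5 and 6 genes rescaled, and in 9, 4 and 8 as deposited. SNHG1 had -1.54 ± 0.11 at 6 h and -2.59 ± 0.11 at 24 h. TEX19 had -2.53 ± 0.19 and -2.76 ± 0.19. Of the 27 plasma cell transcription factors 5 were lower and 1 higher at 6 h and 21 did not pass. On the rescaled scale 15 had a positive difference and 1 a negative one, but as deposited 0 had a positive and 1 a negative one. IRF4 had -0.25 ± 0.13 at 6 h and 0.58 ± 0.13 at 24 h, a difference of 0.83 ± 0.18 (adjusted p = 0.00464). Lysosome genes had a positive difference in 10 of 42, FOXO and quiescence genes in 10 of 26, on the rescaled scale, and in 0 and 1 as deposited (2 lysosome genes were negative there). Of 34 p53 targets 16 were higher and 0 lower at 6 h after rescaling, against 5.11% of all genes higher, and 7 were higher as deposited, against 1.03%. The differences were negative in 8 and positive in 4 rescaled, and negative in 11 and positive in 0 as deposited. CDKN1A had 1.13 ± 0.14 at 6 h and 0.19 ± 0.14 at 24 h, a difference of -0.94 ± 0.20 (adjusted p = 0.00461). MDM2 had -0.32 ± 0.14 at 6 h, and its difference was -0.25 ± 0.20 (adjusted p = 0.52).

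**Figure D5:**
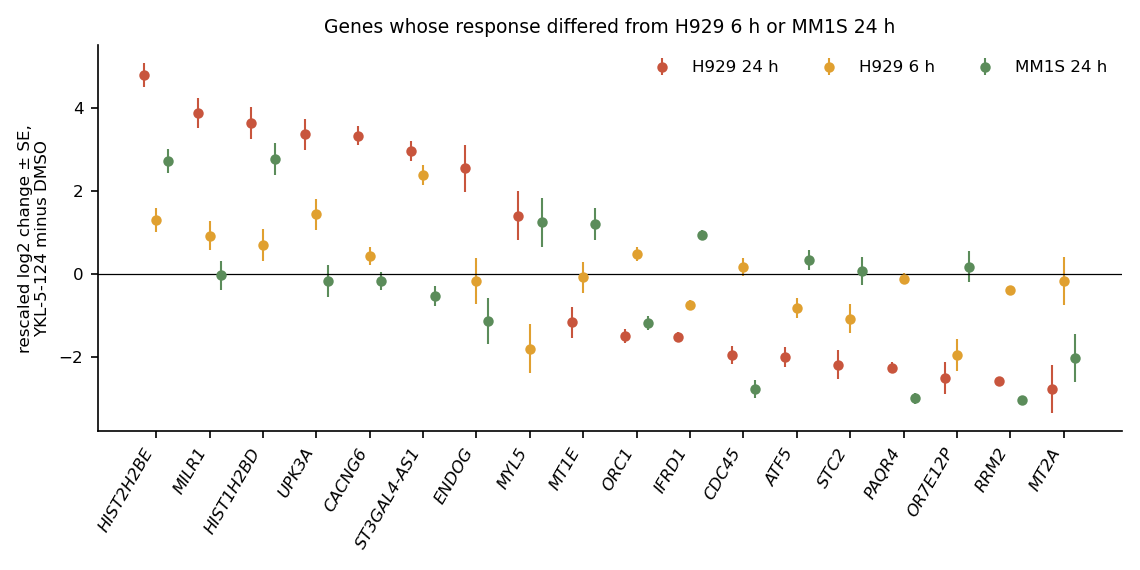
Rescaled log2 change ± SE of genes with the largest differences of response, in H929 at 24 h (red), H929 at 6 h (orange) and MM1S at 24 h (green). HIST2H2BE stands at 4.81, 1.3 and 2.72 and RRM2 at -2.58, -0.39 and -3.03.

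The response of H929 at 24 h differed from that of MM1S at 24 h in 999 genes with a positive difference (8.04%) and 537 with a negative one (4.32%), on the rescaled scale. This difference uses the same H929 24 h libraries as the one between times, and MM1S was labelled with another dose. In MM1S at 24 h the size factors were 0.445, 0.808 and 0.365 in the DMSO libraries and 0.392, 0.418 and 0.451 in the treated ones. The log2 deviations of ERCC entries had an SD of 0.580 in DMSO replicate 1, against 0.241 and 0.155 in replicates 2 and 3. DMSO replicate 3 had 7958 genes of at least 1 FPKM. Without MM1S DMSO replicate 1 the counts were 928 positive and 565 negative. The differences are thus not read as properties of the lines. As deposited, 36 genes (0.29%) had a positive and 133 (1.07%) a negative difference. In MM1S itself 1792 genes (14.4%) were higher and 1655 (13.3%) lower after rescaling. Helicase genes were lower in both lines after rescaling, 11 of 11 in H929 and 10 of 11 in MM1S. The order of the lines turned with the scale: rescaled, 5 differences were positive and 0 negative, with list medians of -1.89 in H929 and -2.62 in MM1S, while as deposited 0 passed in either direction and the medians were -2.71 and -2.34. MCM3 had -2.11 ± 0.17 in H929 and -2.9 ± 0.17 in MM1S (difference 0.79 ± 0.24, adjusted p = 0.0338). The nucleolar factors differed in the other direction. Of 64, 26 had a negative difference and 0 a positive one, with medians of -0.66 in H929 and -0.05 in MM1S, and as deposited 6 had a negative difference and 0 a positive one. NPM1 had -1.6 ± 0.13 and -0.70 ± 0.13 (difference -0.90 ± 0.19), and NCL had -1.16 ± 0.08 and -0.85 ± 0.08 (difference -0.31 ± 0.12). Mitochondrial ribosomal proteins had 17 negative differences of 76 (2 as deposited) and translation initiation factors 9 of 48 (1 as deposited). Complex I genes had 9 positive of 38 and lysosome genes 10 of 42, on the rescaled scale only, as 0 of either list passed as deposited.

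Single genes differed by more on the log2 scale. MILR1 had 3.89 ± 0.35 in H929 and -0.03 ± 0.35 in MM1S, CACNG6 3.34 ± 0.22 and -0.16 ± 0.22, and UPK3A 3.38 ± 0.38 and -0.17 ± 0.38. ATF5 had -2.0 ± 0.24 in H929 and 0.34 ± 0.24 in MM1S. IFRD1, an interferon-related regulator of transcription, had -1.51 ± 0.12 and 0.94 ± 0.12, 2 changes of opposite sign that both passed (adjusted p = 1.33e-08 and 6.88e-06). OR7E12P had -2.5 ± 0.38 and 0.18 ± 0.38. HIST2H2BE, in contrast, was higher in both lines (4.81 ± 0.29 and 2.72 ± 0.29), as were P2RX1 (3.11 ± 0.16 and 1.91 ± 0.16) and VPREB3 (2.54 ± 0.31 and 2.31 ± 0.31).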

How the data were processed

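RNA of 24 libraries, 3 in each of 8 groups, was measured by 3′ end sequencing. The values deposited by the authors are FPKM per gene and library. HISAT2, Cuffnorm and hg19 are named per the submitters' processing notes, without versions. Whether the spike-ins entered the scaling, and whether counting used the strand, is not given in the sources used here. Over the 24 libraries the ERCC sums lay between 137825 and 150501 FPKM, and the gene sums between 361698 and 2.52e+06 FPKM. The deposited values are thus level on the spike-ins. The tables hold 26249 genes and 92 ERCC entries, 0 values equal 0, 0 columns of values were left unused and 0 pairs of libraries were identical. FPKM without read counts gives no depth, so no counting interval is given. Low genes sit near a floor of about 0.1 FPKM, and a change on the log2(FPKM + 1) scale understates that of low genes.

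Groups came from the labels. The 12418 genes that reached 1 FPKM in 3 or more libraries were fitted with limma 3.58.1 (limma-trend, R 4.3.3) as 8 group means, as deposited and after division by median-of-ratios size factors from 6014 reference genes (geometric mean 5 FPKM or above). The H929 24 h contrast and its differences from H929 6 h and MM1S 24 h, which share the H929 24 h libraries, were adjusted by Benjamini-Hochberg. Tested on simulated data for this contrast, the fit on 12418 genes recovered 87 of 100 genes changed by 1 and 98 of 100 changed by 2 on the log2 scale, and called 11 unchanged genes. The simulation used rescaled values with independent noise, changed only genes above 5 FPKM and had no shift of the whole library. It does not cover the deposited scale, low genes or a change in as many genes as here. Other filters, pseudocounts, scalings, a replicate block, array weights and libraries left out were tried.

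The members and lists were chosen with earlier results of these data known. Named genes were the 12 largest rises and 12 largest falls that passed on both scales without overlap, up to 4 members of each list with the smallest p and up to 3 that passed against their list's direction, all members of lists of at most 12, a few fixed genes such as CDK7 and MYC, and the 5 largest differences of each sign between responses. Genes outside this rule are said to be so where they appear, apart from cell markers, and some genes that the rule names are not reported here. Promoters came from RefSeq (GRCh38.p14), matched by symbol for 9665 genes, and only those coordinates are on that build.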

Additional observations from a re-analysis of the deposited data

Results flagged for a closer look

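Results are listed here because the response of H929 at 24 h differed from another response by the limma test of the difference itself, on the rescaled log2 scale. They are the 5 largest of each sign for each of 2 comparisons and are given as values.

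Against the response of H929 at 6 h, the difference was positive for HIST2H2BE (3.51), MYL5 (3.21), MILR1 (2.96), HIST1H2BD (2.94) and CACNG6 (2.91). MYL5, a myosin light chain, did not pass at 24 h itself on either scale (limma adjusted p = 0.183 and 0.0718). The difference was negative for MT2A (-2.62), RRM2 (-2.19), PAQR4 (-2.15), CDC45 (-2.12) and ORC1 (-1.98).

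Against the response of MM1S at 24 h, the difference was positive for MILR1 (3.91), ENDOG (3.68), UPK3A (3.54), ST3GAL4-AS1 (3.5) and CACNG6 (3.5). ENDOG encodes the mitochondrial endonuclease G. The difference was negative for OR7E12P (-2.69), IFRD1 (-2.45), MT1E (-2.37), ATF5 (-2.34) and STC2 (-2.27). Line and dose cannot be told apart in these values.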

How the results depend on the processing

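Depth is unknown, and 3 libraries a group limit precision. As deposited, 4728 genes passed at 24 h in H929 (332 higher, 4396 lower). Array weights gave 7816 (1545 higher), a filter of at least 5 FPKM left 185 higher, and median-of-ratios scaling gave 2585 higher and 1550 lower. Leaving out 1 library moved the total from 2844 (without YKL-5-124 replicate 2) to 5259 (without YKL-5-124 replicate 3), with 2431 to 5016 lower and 223 to 413 higher. The rescaled total of 4135 was 3310 to 3734 with 1 library left out. The difference between times, 1295 genes, was 2724 with array weights (1516 positive, 1208 negative) and 803 as deposited (36 positive, 767 negative). The difference between lines, 1536 genes, was 960 with only the groups compared in the fit (648 positive, 312 negative) and 169 as deposited (36 positive, 133 negative). With 1 library left out it was 997 (without H929 DMSO replicate 3) to 1612 (without MM1S DMSO replicate 3), with 327 to 565 negative, and its negative count was 827 with quantile normalization. The cause was not tested. ATP5G2 changed sign with quantile normalization (0.0832, adjusted p = 0.355).

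Same-numbered libraries had correlations of their deviations of 0.197, 0.030 and 0.069 as deposited, so the numbers were not taken as pairs. With the replicate block 4264 genes passed as deposited, 3870 rescaled, 981 between times and 1123 between lines (352 negative). Of 249 named genes called as deposited, 224 stayed called in the same direction under every alternative, and of 300 called rescaled, 273 did. Sign changes between values that both missed the threshold, 135 in all, were not read as reversals. List counts without single libraries were chosen after seeing the data.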
